A study of Mus musculus with 22 samples.

Results

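Alad, Hdhd3, Ide, Fgfbp3 and Nnt lie at 3 places in the mouse genome that are known to differ in copy number or structure among inbred strains. They were listed by name, with earlier results of these arrays in view, and their differences between genotypes were among those results. Each gene had 1 probe set that names it alone (17426206 for Alad, 17426198 for Hdhd3, 17364251 for Ide, 17364213 for Fgfbp3 and 17296489 for Nnt), so the members were 5 of 41345 probe sets and 5 of 22180 genes. The samples were inguinal white fat, a subcutaneous depot, from 22 male mice, 1 mouse per array. There were 6 wild-type and 6 PPARα-null mice at 28 °C, which is thermoneutral for mice, and 5 wild-type and 5 PPARα-null mice at 5 °C. All were 3 to 4 months old at the start, came from lines that the labels place on a C57BL/6 background, with over 10 generations of backcrossing to C57Bl/6J, and spent 5 weeks at 28 °C. The groups at 5 °C then had 1 week at 21 °C and 10 days in the cold. For the groups at 28 °C the labels give a 10-day period at 28 °C and no week at 21 °C. The null mice lack PPARα, a nuclear receptor for fatty acids, in all cells, and the 2 genotypes came from separate Jackson lines bred on in 1 facility. The labels say neither whether littermates were used nor how the arrayed mice were picked from the 10 housed per group.

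Alad encodes delta-aminolevulinate dehydratase, the enzyme that joins a pair of aminolevulinate molecules into porphobilinogen in heme synthesis, and it is duplicated in tandem in some inbred strains such as DBA/2J. Hdhd3, the gene next to it, encodes a protein of the haloacid dehalogenase-like hydrolase family. Ide encodes insulin-degrading enzyme, a zinc metallopeptidase that cleaves insulin and amyloid beta, and Fgfbp3 a secreted protein that binds fibroblast growth factors. A duplicated segment with Ide and Fgfbp3 has been described as varying within the C57BL/6J strain itself. Nnt encodes the nicotinamide nucleotide transhydrogenase of the inner mitochondrial membrane, which uses the proton gradient to make NADPH, and C57BL/6J carries a deletion of several of its exons. Copy number was not measured here, and the position of the probes within these genes was not known from the labels.

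The bases upstream of the genes' starts are shown for the pairs whose members went the same way between genotypes. RefSeq (GRCm38.p6) has a promoter window for 4 of the 5 genes. Alad has 2 starts in the table, and the first is shown. Shown are the 250 bases before the start, all on the minus strand: Alad at chr4:62520064-62520313, Hdhd3 at chr4:62502201-62502450, Ide at chr19:37334545-37334794 and Fgfbp3 at chr19:36919600-36919849. Capitals mark matches, on either strand, to 5 short motifs. The E-box was searched as CACGTG. The GC box, a site of Sp1-type factors, was searched as GGGCGG. The CCAAT box was searched by the letters of its name. The core of the cAMP response element was searched as TGACG. The TATA box of promoters was searched as TATAAA.
Alad: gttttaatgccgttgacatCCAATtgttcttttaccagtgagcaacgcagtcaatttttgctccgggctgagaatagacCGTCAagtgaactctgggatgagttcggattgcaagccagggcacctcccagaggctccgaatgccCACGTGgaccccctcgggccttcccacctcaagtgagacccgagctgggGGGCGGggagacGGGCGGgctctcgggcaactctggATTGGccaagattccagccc
Hdhd3: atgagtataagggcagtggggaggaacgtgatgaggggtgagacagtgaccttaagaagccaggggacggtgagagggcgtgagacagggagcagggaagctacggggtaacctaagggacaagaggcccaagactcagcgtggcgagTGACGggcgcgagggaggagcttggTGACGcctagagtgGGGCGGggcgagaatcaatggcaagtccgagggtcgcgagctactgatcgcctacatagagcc
Ide: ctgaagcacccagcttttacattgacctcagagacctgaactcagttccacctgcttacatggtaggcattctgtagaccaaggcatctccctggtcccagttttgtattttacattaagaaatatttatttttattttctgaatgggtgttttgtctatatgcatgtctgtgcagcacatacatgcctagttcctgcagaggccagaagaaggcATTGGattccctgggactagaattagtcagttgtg
Fgfbp3: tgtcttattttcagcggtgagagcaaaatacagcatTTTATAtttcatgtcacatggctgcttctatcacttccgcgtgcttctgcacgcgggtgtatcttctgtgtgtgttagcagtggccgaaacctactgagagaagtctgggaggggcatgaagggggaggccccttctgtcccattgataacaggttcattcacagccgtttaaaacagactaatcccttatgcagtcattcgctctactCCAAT
The Alad window had an E-box, which 6.02% of 32851 such windows had, with a pair of GC boxes (a GC box was in 32.7% of windows). The window of the second Alad start, which overlaps the first, had 70.4% guanine and cytosine, more GC boxes and no TGACG match. It held a different E-box, at −28 to −23 from that start. The E-box of the first window, at −105 to −100 from the first start, lies outside the overlap. The Hdhd3 window had 1 GC box and a pair of TGACG matches (TGACG in 17.8%). The Ide window had a single CCAAT box (CCAAT in 33.8%), and the Fgfbp3 window a CCAAT box and a TATA box (TATAAA in 12.4%). A perfect DR1 element, the direct repeat that PPARs bind, was in 0.0335% of windows and in none of these 4. Guanine and cytosine made up 58.4% and 60.8% of the Alad and Hdhd3 windows and 42.8% and 47.2% of those of Ide and Fgfbp3, with a median of 52.4% over all windows. A match is a string of letters and not a site of binding.

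The arrays were alike in scale, with medians from 4.16 to 4.25 log2 units over all probe sets and lower quartiles from 2.83 to 2.91. Pairs of arrays correlated at 0.958 to 0.981 over all probe sets, and the number of arrays limits the precision. The mean of 8 adipocyte markers was high on all arrays, at 10.76 to 11.20. Muscle markers varied between fat pads (mean of 8 markers 6.01 to 10.54), as did those of B and T cells (mean of 8 markers 4.01 to 8.37). Macrophage markers were at 8.60 to 8.95 at 28 °C and at 7.97 to 8.34 at 5 °C (mean of 7), and epithelial markers at 3.64 to 4.07 (mean of 5). None of the 5 red blood cell markers had a probe set of its own here. Ucp1, the uncoupling protein of thermogenic fat, rose by 7.05 (SE 0.25) log2 units with cold in wild-type and by 6.90 (SE 0.25) in null mice (limma, adjusted p = 1.63e-14 and 2.5e-14). The Ppara probe set did not separate the genotypes (null minus wild type 0.16 ± 0.22 SE at 28 °C and −0.29 ± 0.24 SE at 5 °C, limma adjusted p = 0.956 and 0.895), and it does not check the labels, since the position of its probes relative to the disrupted part was not known.

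Alad was the higher in null mice at either temperature. Its log2 values ran from 7.17 through a median of 7.36 to 7.51 in wild-type mice at 28 °C, and were 7.69, 7.79, 7.86, 7.86 and 7.94 at 5 °C. In null mice they ran from 8.22 through 8.32 to 8.58 at 28 °C, and were 8.53, 8.64, 8.73, 8.77 and 8.96 at 5 °C. Every null mouse stood above every wild-type mouse, whatever its temperature. The group means ± SD were 7.35 ± 0.11 (n = 6), 7.83 ± 0.09 (n = 5), 8.35 ± 0.12 (n = 6) and 8.72 ± 0.16 (n = 5) in the same order. Null minus wild type was 1.00 (SE 0.08) at 28 °C and 0.90 (SE 0.09) at 5 °C, or 2.00-fold and 1.86-fold in signal. As these genotype differences helped to choose the genes, they are given as a description, with no test, here and for the other members.

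Hdhd3 gave a dim signal, not far above the lower quartile of the arrays in wild-type mice. It ran from 2.87 through 3.39 to 3.55 in wild-type mice at 28 °C and was 3.14, 3.46, 3.90, 4.10 and 4.30 at 5 °C. In null mice it ran from 4.00 through 4.28 to 4.97 at 28 °C and was 4.09, 4.63, 4.73, 4.81 and 4.85 at 5 °C. The genotypes did not overlap at 28 °C, and at 5 °C the lowest null mouse fell below the 2 highest wild-type mice. Null minus wild type was 1.09 (SE 0.19) at 28 °C, from 3.29 ± 0.28 (SD, n = 6) to 4.38 ± 0.33 (SD, n = 6). At 5 °C it was 0.84 (SE 0.21), from 3.78 ± 0.47 (SD, n = 5) to 4.62 ± 0.31 (SD, n = 5). These are 2.12-fold and 1.79-fold in signal, and for so dim a probe set the size is uncertain.

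Ide went the other way and was the lower in null mice. Its log2 values ran from 9.23 through 9.43 to 9.55 in wild-type mice at 28 °C and were 9.86, 9.87, 9.90, 9.97 and 9.99 at 5 °C. In null mice they ran from 8.14 through 8.36 to 8.57 at 28 °C and were 8.78, 8.81, 8.99, 9.06 and 9.10 at 5 °C. The 4 groups did not overlap at any step of their order, which was null at 28 °C (8.36 ± 0.14, SD, n = 6), null at 5 °C (8.95 ± 0.14, n = 5), wild type at 28 °C (9.43 ± 0.12, n = 6) and wild type at 5 °C (9.92 ± 0.06, n = 5). Over all 22180 genes, 1 gene (0.00451%) had 4 groups that were apart in this way, and it was Ide. Since the genotype difference of Ide helped to list it, this is a description of the order and not a finding. Null minus wild type was −1.07 (SE 0.08) at 28 °C and −0.97 (SE 0.08) at 5 °C, so wild-type signal was 2.10-fold and 1.96-fold that of null mice.

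Fgfbp3 was also lower in null mice on average, by a smaller amount and with overlap. It ran from 4.99 through 5.54 to 5.78 in wild-type mice at 28 °C and was 5.06, 5.39, 5.42, 5.44 and 5.72 at 5 °C. In null mice it ran from 4.61 through 5.07 to 5.22 at 28 °C and was 4.87, 5.01, 5.07, 5.18 and 5.31 at 5 °C. The groups overlapped at each step of their order. Null minus wild type was −0.46 (SE 0.13) at 28 °C, from 5.47 ± 0.29 (SD, n = 6) to 5.02 ± 0.22 (SD, n = 6). It was −0.32 (SE 0.14) at 5 °C, from 5.41 ± 0.24 (SD, n = 5) to 5.09 ± 0.17 (SD, n = 5).

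Nnt had nearly the same level in both genotypes at 28 °C. It ran from 5.75 through 5.86 to 6.02 in wild-type mice (5.88 ± 0.09, SD, n = 6) and from 5.62 through 5.90 to 5.95 in null mice (5.87 ± 0.12, n = 6). At 5 °C it was 5.13, 5.13, 5.29, 5.34 and 5.47 in wild-type mice (5.27 ± 0.15, n = 5) and 5.47, 5.47, 5.55, 5.59 and 5.59 in null mice (5.53 ± 0.06, n = 5). Null minus wild type was −0.01 (SE 0.07) at 28 °C and 0.26 (SE 0.08) at 5 °C, where the highest wild-type and the lowest null mouse met at 5.47. Over all 22 mice the values of the probe set ran from 5.13 to 6.02, with no measure of background to set them against.

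**Figure D1:**
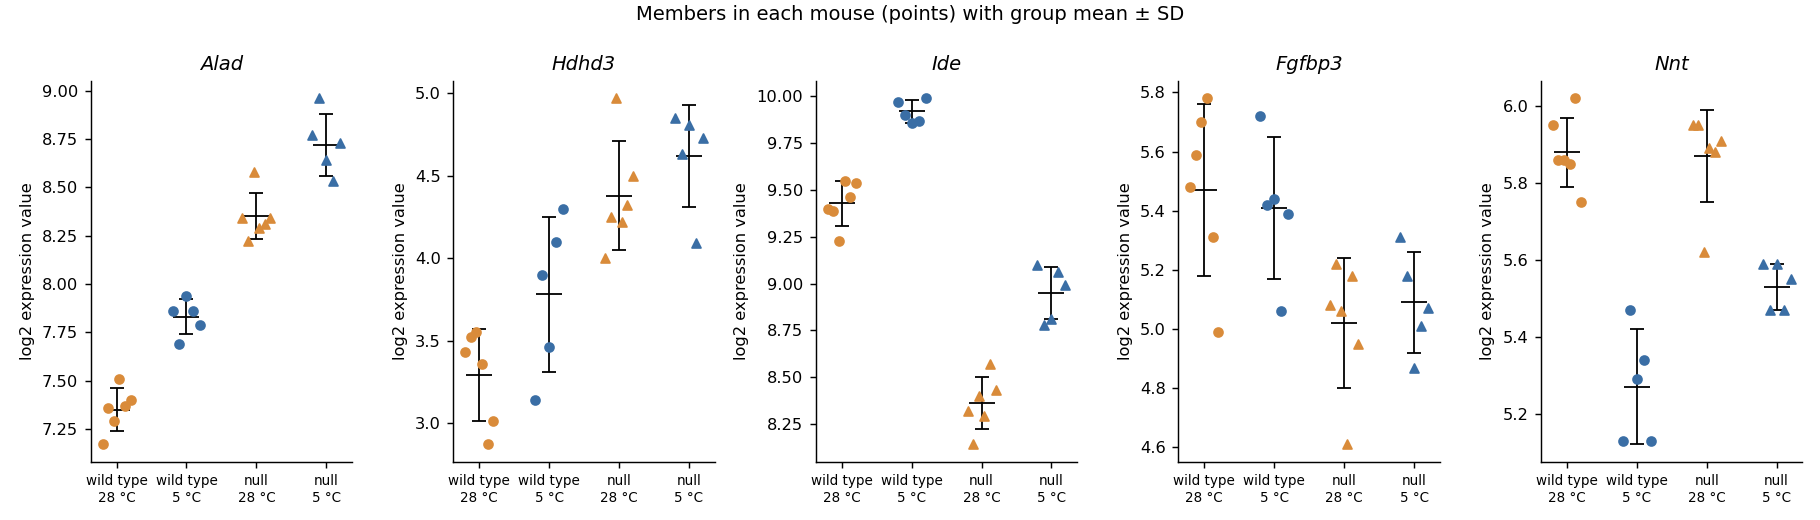
The log2 expression value of each member (vertical axis) in the 4 groups of genotype and temperature, with 1 point per mouse (circles wild type, triangles PPARα-null, orange 28 °C, blue 5 °C) and bars for the mean ± SD of 5 or 6 mice. Null mice are above all wild-type mice for Alad (8.22 and higher against 7.94 and lower) and below them for Ide (9.10 and lower against 9.23 and higher), and each panel has its own scale.

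The groups of the 2 genotypes did not overlap for 3 of the 5 members at 28 °C (Alad, Hdhd3 and Ide) and for 2 at 5 °C (Alad and Ide). Over all genes this held for 0.555% at 28 °C and for 1.22% at 5 °C, and since the members were picked with these differences known the counts carry no weight. Genotype took 79.4% of the sum of squares of Alad over the 22 arrays, 75.4% of that of Ide, 63.0% of that of Hdhd3, 45.4% of that of Fgfbp3 and 4.31% of that of Nnt. Temperature took 75.4% of that of Nnt, 20.9% of that of Ide and 16% of that of Alad. Markers of other cell types were not called between the genotypes in the same arrays. The 8 skeletal muscle markers had a median null minus wild-type difference of −1.69 at 28 °C and −0.54 at 5 °C, with 0 of 8 called by limma, and means of 7.40 to 9.86 in wild-type against 6.01 to 8.76 in null mice at 28 °C. The B and T cell markers had medians of 0.30 and 0.04 (0 of 8 called) and the epithelial markers 0.09 and 0.21 (0 of 5 called). The part of these cell types in the members' differences was not tested.

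The genes on either side were used to ask how far along the chromosome a genotype difference went, where their signal was bright enough. Taken in the order of the RefSeq table (GRCm38.p6), the 5 nearest measured genes on each side of a place, with those between its members, made 35 flanking genes. By limma over all 22180 genes, 0.194% were called (adjusted p under 0.05) at 28 °C and 0.149% at 5 °C. Of the 35 flanking genes 1 was called at each temperature, and it was the same gene, 4931408D14Rik. Some flanking genes were dim, with group means below the lower quartile of the arrays (2.83 to 2.91). Examples are Ambp (2.45 to 2.68), Cyp26a1 (2.38 to 2.56) and 1700074H08Rik (2.06 to 2.30), 1 from each place. For such genes the lack of a call does not show that a difference was absent.

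The non-coding transcript 4931408D14Rik is the measured gene next to Ide on the side towards Fgfbp3, on the same strand. Its log2 values in wild-type mice ran from 6.95 through 7.06 to 7.25 at 28 °C and were 6.59, 6.81, 6.95, 7.08 and 7.28 at 5 °C. In null mice it ran from 5.57 through 5.88 to 6.41 at 28 °C and was 5.98, 6.01, 6.10, 6.24 and 6.25 at 5 °C. The genotypes did not overlap at either temperature. It was lower in null mice by −1.14 (SE 0.13, limma adjusted p = 2.46e-05) at 28 °C, with 6 of 6 null mice below all wild-type mice, and by −0.83 (SE 0.14, limma adjusted p = 0.00876) at 5 °C, with 5 of 5. Its average cold effect was 0.03 (SE 0.10, limma adjusted p = 0.845).

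The other genes between Fgfbp3 and Ide did not pass. The order on chromosome 19 is Fgfbp3, Btaf1, Cpeb3, A330032B11Rik, Marchf5, 4931408D14Rik and Ide. Btaf1, which encodes a factor that removes the TATA-binding protein from DNA, was at −0.16 (SE 0.08, limma adjusted p = 0.760) at 28 °C and −0.33 (SE 0.09, limma adjusted p = 0.237) at 5 °C. Marchf5, a ubiquitin ligase of the mitochondrial outer membrane, was at 0.08 (95% interval −0.05 to 0.21) and 0.08 (−0.07 to 0.22), intervals that do not reach the size seen for Ide. Cpeb3, an RNA-binding protein, was at −0.02 (−0.22 to 0.18) and 0.09 (−0.12 to 0.31). Beyond the pair, Tnks2, a tankyrase, was at 0.11 (−0.02 to 0.23) and 0.12 (−0.02 to 0.25), and Kif11, a mitotic kinesin, at −0.12 (−0.55 to 0.31) and 0.00 (−0.47 to 0.46).

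Around Alad and Hdhd3 on chromosome 4, 0 of 10 flanking genes were called by limma at either temperature, with 1 and 2 at an unadjusted p under 0.05. Over all 22180 genes, 1496 had an unadjusted limma p under 0.05 at 28 °C and 1476 at 5 °C. Bspry, on the Hdhd3 side, was at 0.00 (95% interval −0.42 to 0.42) at 28 °C and 0.46 (0.00 to 0.92, limma adjusted p = 0.750) at 5 °C. Pole3, a subunit of DNA polymerase epsilon on the Alad side, was at 0.25 (0.07 to 0.42, limma adjusted p = 0.470) and −0.01 (−0.20 to 0.18). Around Nnt on chromosome 13, 0 of 10 were called by limma, with 1 at an unadjusted p under 0.05 at each temperature. The nearest of these, Fgf10 and Paip1, were at −0.14 (−0.36 to 0.08) and 0.01 (−0.13 to 0.16) at 28 °C.

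**Figure D2:**
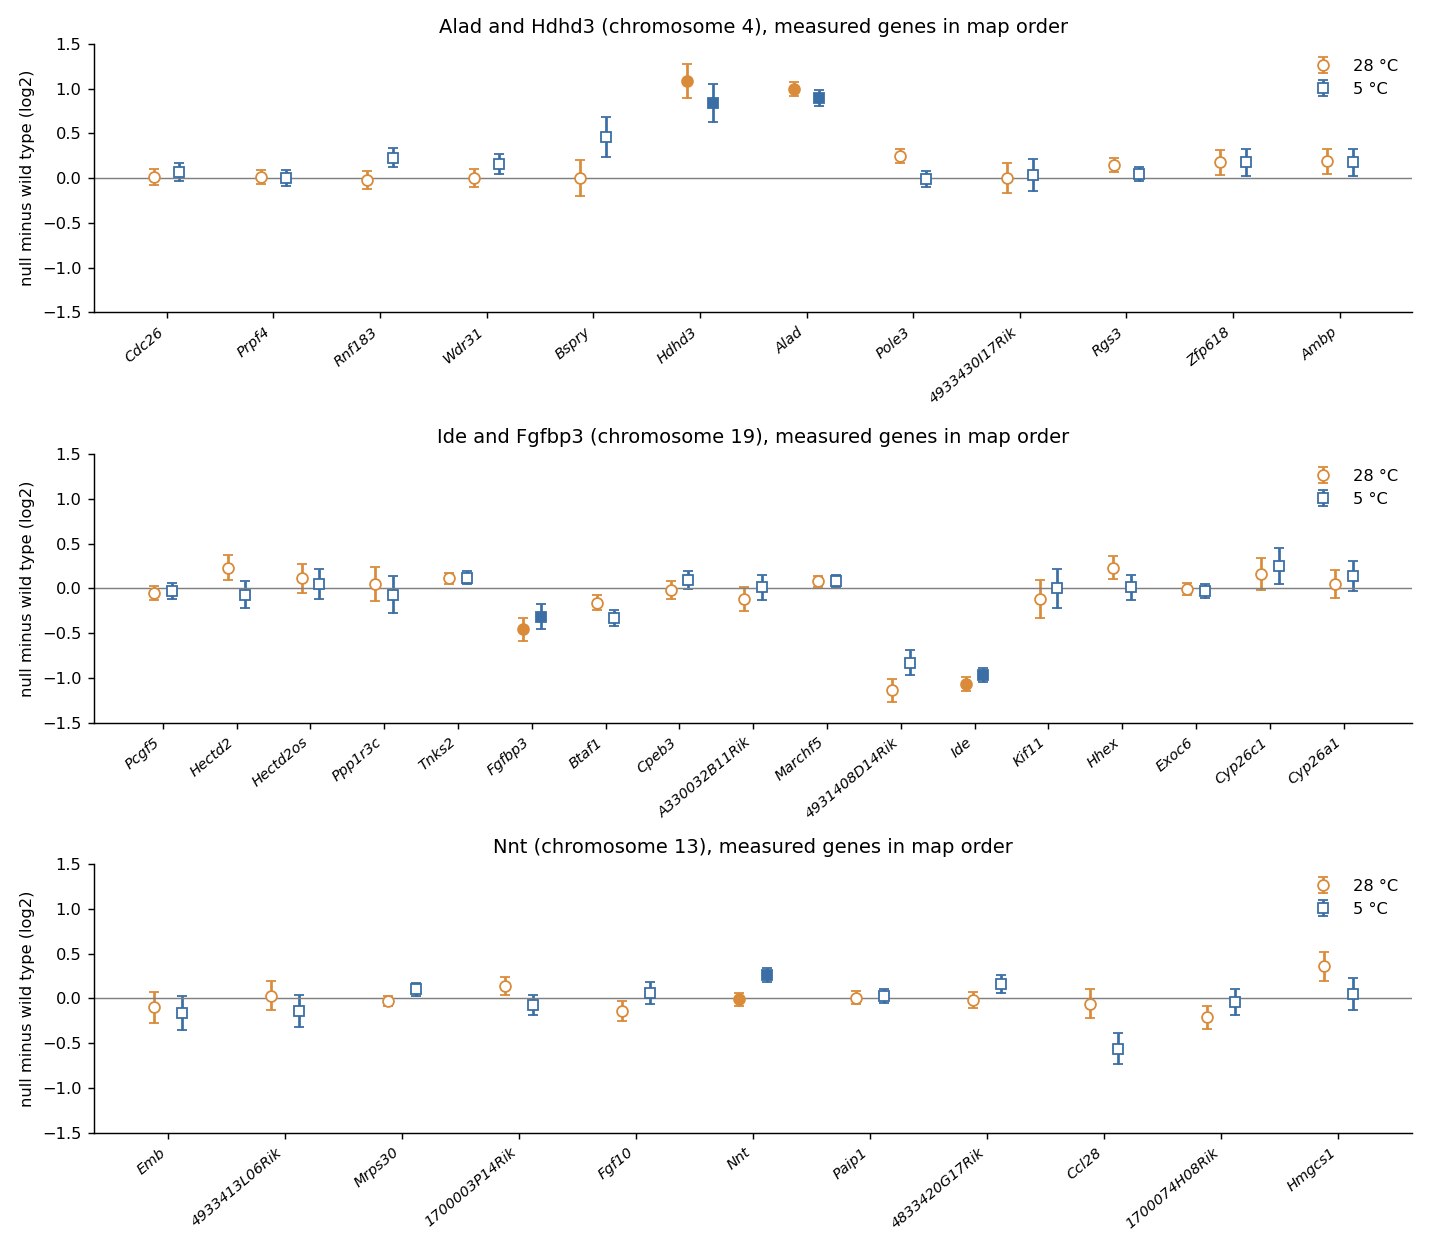
Null minus wild-type difference (log2, vertical axis) for the measured genes at the 3 places in map order (horizontal axis, not to scale in bases), at 28 °C (orange circles) and 5 °C (blue squares), with bars for the SE of the fit and filled symbols for the members. Alad and Hdhd3 stand between 0.84 and 1.09 and their 10 flanking genes between −0.02 and 0.46, with Bspry the highest of these at 5 °C. Ide and 4931408D14Rik stand between −0.83 and −1.14. The other flanking genes of Ide and Fgfbp3 lie between −0.33 and 0.25, with Btaf1 the lowest of these at 5 °C.

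The comparison of 5 °C with 28 °C asks how the members respond to cold. The members were listed with their genotype differences on the same arrays in view, and the cold fall of Nnt was in view as well. Alad and Ide rose and Nnt fell in each genotype, and Hdhd3 and Fgfbp3 did not pass. Thus 3 of 5 members were called by limma in wild-type mice, where 16.7% of all genes were, and 3 of 5 in null mice, where 13.2% were. In the average of the cold effects of the 2 genotypes it was 3 of 5, with 24.8% of all genes called. Without Nnt, whose fall was known, these counts rest on Alad and Ide. Cold and warm mice of 1 genotype did not overlap for Alad, Ide and Nnt in wild-type mice, as for 11.8% of all genes, and for Ide and Nnt in null mice, as for 9.11%. In whole tissue, fewer cells of a type and less RNA per cell cannot be told apart. The 7 macrophage markers fell in each genotype (7 of 7 called, medians −0.65 and −0.61), and their part in the members' changes was not tested.

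Ide rose by 0.49 (SE 0.08, limma adjusted p = 0.000146) in wild-type and by 0.59 (SE 0.08, limma adjusted p = 1.96e-05) in null mice, or 1.40-fold and 1.51-fold, with 5 of 5 cold mice above all mice at 28 °C in each. The null mice at 5 °C were still below the wild-type mice at 28 °C. Alad rose by 0.48 (SE 0.08, limma adjusted p = 0.000199) in wild-type mice, 1.39-fold, with no overlap. In null mice it rose by 0.38 (SE 0.08, limma adjusted p = 0.00256), 1.30-fold, with an overlap between 8.53 and 8.58.

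Nnt fell by 0.61 on the log2 scale (SE 0.08, limma adjusted p = 4.63e-06) in wild-type and by 0.33 (SE 0.08, limma adjusted p = 0.00411) in null mice, with 5 of 5 cold mice below all mice at 28 °C in each genotype. These falls were among the earlier results of these arrays. Hdhd3 was higher in the cold by 0.49 (SE 0.20, limma adjusted p = 0.104) in wild-type and by 0.25 (SE 0.20, limma adjusted p = 0.514) in null mice, and neither passed. Without the lowest wild-type mouse at 5 °C (replicate 1, at 3.14), the wild-type value was 0.65 (limma adjusted p = 0.0269), and over all single arrays left out it ran from 0.36 to 0.65 (limma adjusted p 0.0269 to 0.269). Fgfbp3 was at −0.07 (95% interval −0.36 to 0.22) and 0.07 (−0.22 to 0.36).

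The difference between the cold effects, null minus wild type, was called for 0 of 5 members by limma, as for 0% of all genes. An unadjusted limma p under 0.05 was found for 1137 of all 22180 genes and for 1 of 5 members. That member was Nnt, whose fall was smaller in null mice by 0.28 (SE 0.11, 95% interval 0.06 to 0.50, limma adjusted p = 0.963). For Ide the difference was 0.10 (−0.14 to 0.34) and for Alad −0.10 (−0.34 to 0.14). For Hdhd3 it was −0.24 (−0.83 to 0.35) and for Fgfbp3 0.14 (−0.27 to 0.55), intervals that leave room for a difference as large as the cold effects themselves.

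**Figure D3:**
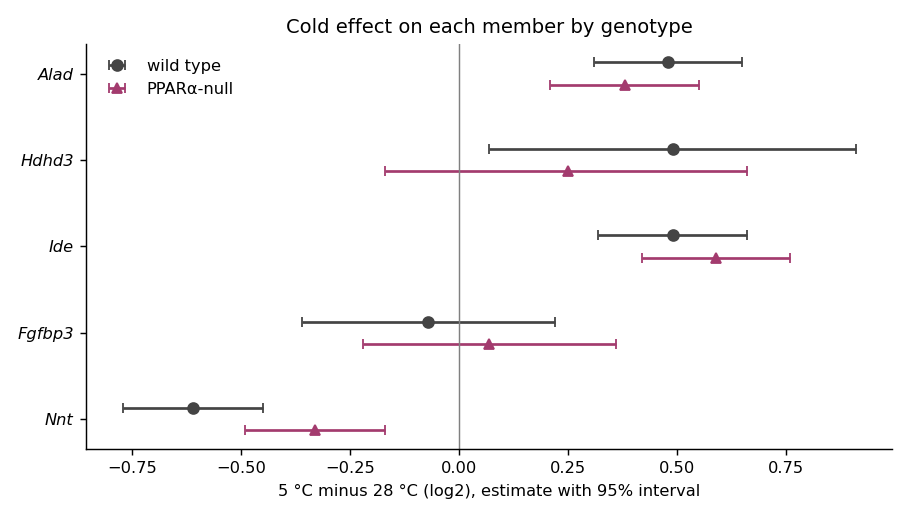
Change with cold (5 °C minus 28 °C, log2, horizontal axis) of each member in wild-type (grey circles) and PPARα-null mice (purple triangles), with 95% intervals from the fit to 22 arrays. Alad and Ide lie between 0.38 and 0.59, Nnt at −0.61 and −0.33, and the intervals of Fgfbp3 and of Hdhd3 in null mice include 0.

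Each member was set beside genes of its own pathway, with the average cold effect as the measure and a median of 0.01 over all genes. Of all 22180 genes, 2586 rose and 2913 fell by that measure. In heme synthesis 5 of 7 measured genes rose and 0 fell by limma (3 of 7 rose in null mice alone), with a median of 0.37, and Ppox was at −0.10 (SE 0.04, limma adjusted p = 0.112). Urod, which removes carboxyl groups from uroporphyrinogen, rose by 0.46 (SE 0.06), Alad by 0.43 (SE 0.06), Fech, which inserts the iron, by 0.37 (SE 0.06), Uros, which closes the ring, by 0.37 (SE 0.08) and Alas1, which makes aminolevulinate, by 0.29 (SE 0.08), with limma adjusted p from 1.51e-06 to 0.00971. Between the genotypes, Alas1 was at 0.35 (SE 0.11, limma adjusted p = 0.416) and 0.14 (SE 0.12, limma adjusted p = 0.908).

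Among genes of mitochondrial NADPH supply and peroxide removal, 11 of 18 rose, and 1 fell, which was Nnt (−0.47, SE 0.05, limma adjusted p = 5.61e-07). The median of the list was 0.19. The superoxide dismutase Sod2 rose by 1.07 (SE 0.07), the peroxiredoxin Prdx3 by 0.94 (SE 0.06), the glutaredoxin Glrx5, which serves iron-sulfur cluster assembly, by 0.88 (SE 0.05) and the thioredoxin reductase Txnrd2 by 0.75 (SE 0.06). Of other sources of mitochondrial NADPH, the malic enzyme Me3 was higher by 0.90 (SE 0.11, limma adjusted p = 2.43e-06) and the isocitrate dehydrogenase Idh2 by 0.16 (SE 0.05, limma adjusted p = 0.0371). Me2 (−0.07), Aldh1l2 (−0.25), Mthfd2 (0.16), Mthfd2l (0.12) and Glud1 (0.08) did not pass (limma adjusted p from 0.18 to 0.562).

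The list for Ide joined peptidases of its M16 family with insulin- and amyloid-degrading or related peptidases outside that family. Of its genes 8 of 13 rose, Ide included, and 1 fell, with a median of 0.23. The 4 other genes of smallest p were relatives that work in mitochondria, the complex III core proteins Uqcrc1 (1.19, SE 0.07) and Uqcrc2 (0.96, SE 0.06) and the processing peptidase subunits Pmpcb (0.72, SE 0.06) and Pmpca (0.49, SE 0.05), beside Ide at 0.54 (SE 0.06). The endothelin-converting enzyme Ece1 fell (−0.32, SE 0.05, limma adjusted p = 2.24e-05).

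Around Fgfbp3, 4 of 15 genes of FGF binding proteins, FGFs and their receptors rose and 4 fell, with a median of −0.02. Klb, the coreceptor of FGF21, rose by 0.68 (SE 0.10), and Fgfr2 by 0.34 (SE 0.07), Fgfr3 by 0.49 (SE 0.13) and Fgf21 by 0.57 (SE 0.15) did too. Fgf2 (−0.64, SE 0.09), Fgfr1 (−0.34, SE 0.07), Fgf18 (−0.52, SE 0.12) and Fgf7 (−0.41, SE 0.10) fell. Fgfbp1, the other binding protein measured, was at 0.07 (SE 0.08, limma adjusted p = 0.563). Of 14 phosphatases and related enzymes of the haloacid dehalogenase type, the family of Hdhd3, 10 rose and 1 fell, with a median of 0.39. Those of smallest p were the phosphomannomutase Pmm1 (1.10, SE 0.07), the phosphoglycolate phosphatase Pgp (0.87, SE 0.08), the phosphoserine phosphatase Psph (0.69, SE 0.10) and Hdhd2 (0.44, SE 0.07). The 1 that fell was the nucleotidase Nt5c (−0.23, SE 0.07, limma adjusted p = 0.0185), a call that was lost with array medians subtracted.

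**Figure D4:**
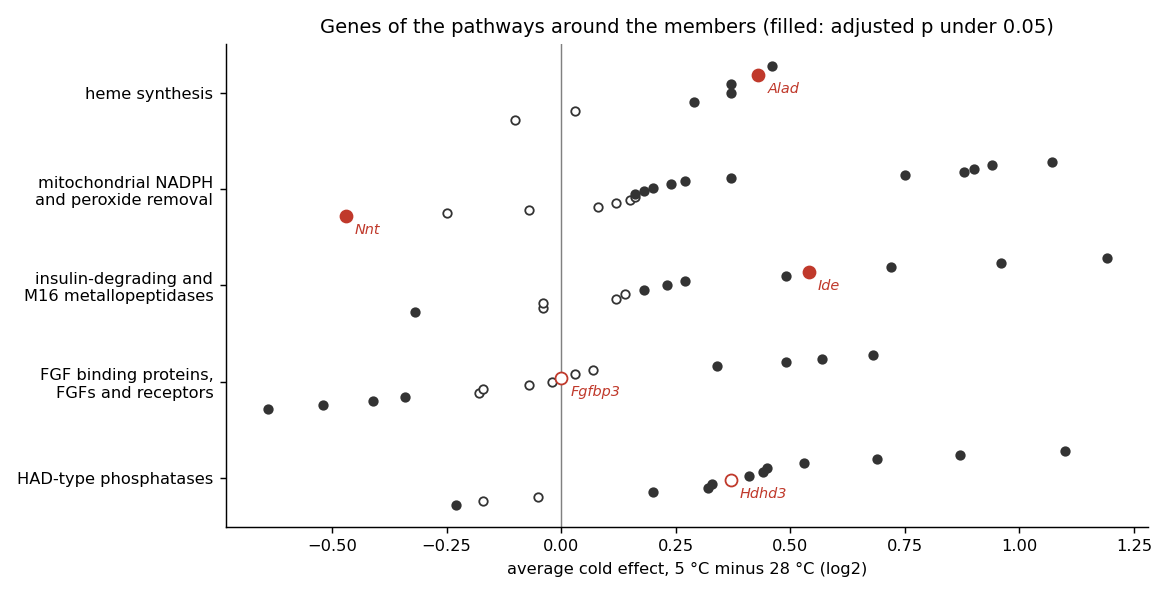
Average cold effect (log2, horizontal axis) of each measured gene in the 5 pathway lists (rows), with members in red and named, and filled symbols for genes called by limma at an adjusted p under 0.05. Nnt, at −0.47, is the lowest gene of its list, and Alad (0.43) and Ide (0.54) lie among genes that rose.

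Last, the spread within groups was used to ask whether members vary together from mouse to mouse once group means are taken out. The SD within groups was 0.12 for Alad, 0.12 for Ide and 0.11 for Nnt, against a median of 0.22 over all genes, and 0.24 for Fgfbp3 and 0.35 for Hdhd3. Over 22 arrays the deviations of Alad and Hdhd3 had r = 0.16 and rho = 0.02 (permutation p = 0.484 and 0.944, adjusted p = 0.919 and 0.944 over the 10 pairs of members). Without the 2 arrays farthest from the median in Alad, r was −0.05. Those of Ide and Fgfbp3 had r = 0.02 and rho = 0.05 (permutation p = 0.919 and 0.832, adjusted p = 0.919 and 0.944), and r = 0.05 without 2 arrays. So neither Alad with Hdhd3 nor Ide with Fgfbp3 varied together detectably within groups. In the order of all 22179 other genes by r, Hdhd3 ranked 7104 for Alad and Fgfbp3 ranked 10994 for Ide.

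Of the 10 pairs, Alad and Nnt had the largest r in size, −0.47 (permutation p = 0.0291, adjusted p = 0.291), with rho = −0.38 (permutation p = 0.0927, adjusted p = 0.824) and r = −0.24 without 2 arrays. The genes whose deviations were most like those of a member, over 22 arrays, were Ndufa1, Ndufa12, Mpc1, Ugp2 and Atp5pb for Ide (r from 0.83 to 0.85) and Rufy4, Zfp316, Zfp729b, Hpd and Tmem80 for Alad (0.75 to 0.79). For Hdhd3 they were Mfsd5, Aph1b, F8a, Zmiz1 and Gm10516 (0.74 to 0.78), for Fgfbp3 Dusp7, Zfyve26, Acads, Epn1 and Mir5125 (0.75 to 0.82), and for Nnt Adam28, Radil, Larp4b, Dusp8 and Ube2d1 (0.72 to 0.75). They are the highest of 22179 values each, and the arrays share their normalization.

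**Figure D5:**
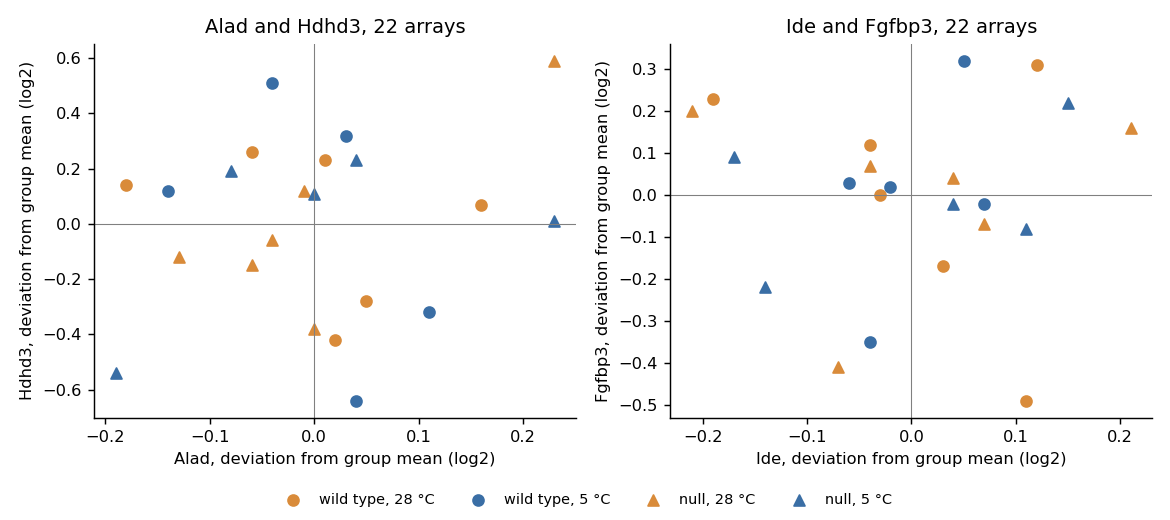
Deviation of each of the 22 arrays from its group mean (log2) for Alad against Hdhd3 and for Ide against Fgfbp3 (circles wild type, triangles PPARα-null, orange 28 °C, blue 5 °C). The points show no slope in either panel (r = 0.16 and 0.02).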

How the data were processed

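Expression was measured on Affymetrix whole-transcript arrays. The deposited table holds 1 log2 value per probe set and array, which the authors made with RMA, per the submitters' processing notes, and it was used without further scaling. Of the 41345 probe sets the platform annotation gives 1 symbol to 23521, more than 1 to 1814 and none to 16010, and the brightest probe set stood for each of 1082 genes with more than 1, leaving 22180 genes, 21994 with a RefSeq position.

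All genes were fitted with limma 3.58.1 (R 4.3.3, 4 groups in 1 fit, 18 residual degrees of freedom), with Benjamini-Hochberg adjustment over all genes and calls at an adjusted p under 0.05; SE and 95% intervals are from the fit. The fit was tested on simulated data. Correlations of deviations from group means were tested with 100000 two-sided permutations of arrays within groups. The named genes are the members, flanking genes called with a place's immediate neighbours, and the 5 genes most like each member. In each list, up to 4 others of smallest p were named, with exceptions. Rbp4, the genes between Fgfbp3 and Ide, the dim flanking genes and more list genes were named after their values were seen. Nothing in the labels says that the mice of a group had separate litters or cages, so p-values measure the spread between these mice. The members and lists were chosen with earlier results of these data known. Alternatives were other scalings (array medians subtracted, quantile normalization), filters on dim genes, averaging probe sets per gene, trended and robust moderation, array weights, only the groups compared, a replicate block, 10 flanking genes a side and leaving out each array.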

Additional observations from a re-analysis of the deposited data

Results flagged for a closer look

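Among the 20 sets of values (5 members in 4 groups), 2 had a mouse farther from the others than Dixon's 95% critical value allows, and chance alone marks about 1 in 20. Both were the same mouse, replicate 3 of the null mice at 28 °C, which had the highest Alad of its group (8.58) and the lowest Nnt (5.62). Its Hdhd3 was the highest of its group as well (4.97). The gap to the next mouse was 0.658 of the group's range for Alad and 0.773 for Nnt, against a critical value of 0.625. The cause was not tested.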

How the results depend on the processing

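The cold calls of Alad, Ide and Nnt kept their direction and side of the threshold in each genotype and on average under all alternatives run, with adjusted p of at most 0.0212 (limma). Hdhd3 did not pass on average with all arrays (limma adjusted p = 0.0629). It passed with array medians subtracted (0.42, adjusted p = 0.0299), without the dimmest 25% of genes (0.37, adjusted p = 0.0487) and with array weights (0.41, adjusted p = 0.0327). It also passed when 1 of 4 particular arrays was left out (adjusted p 0.0165 to 0.0456). Elsewhere it did not pass, with adjusted p up to 0.127 in the other alternatives and up to 0.128 with 1 array left out. So it lies at the threshold, and with the dimmest 50% left out it was not tested. With 1 array left out, 3 to 4 members were called in wild-type mice, 3 in null mice and 3 to 4 on average, and the members whose genotypes did not overlap numbered 3 to 4 at 28 °C and 2 to 4 at 5 °C, where 4 were apart without null replicate 4, the lowest in Hdhd3. 4931408D14Rik was the flanking gene called in each of the 6 other settings run for the flanking genes and with each array left out. Its limma adjusted p was up to 0.00153 at 28 °C and 0.048 at 5 °C. With 10 flanking genes a side, 1 of 65 was called. Rbp4, beyond Ide in that wider set, was at −0.34 at each temperature without a call (limma adjusted p = 0.0579 at 28 °C and 0.129 at 5 °C). Its values were 9.16 to 9.50 in null and 9.54 to 9.70 in wild-type mice at 28 °C. At 5 °C they were 9.03 to 9.30 and 9.33 to 9.71. Groups were apart for 0.555% and 1.22% of all genes. The call of Nt5c was lost with array medians subtracted (0 genes of its list lower). That scaling moved the split of all genes in the average cold effect from 2586 higher and 2913 lower to 3578 and 2052. Arrays of different groups with the same replicate number were no more alike in their deviations than those with different numbers. Of same-numbered pairs 6 of 31 correlated above 0.1 (median r −0.041), and of differently numbered pairs 36 of 150 (median r 0.003). With the replicate block 3 members were called in each genotype and on average, as without it. No measure of signal over background was at hand, and Hdhd3 was the dim member that dropped out with the dimmest 50% of genes.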
